A study of Mus musculus with 8 samples.

Results

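The 10 apolipoprotein genes that the mouse liver is known for, Apoa1, Apoa2, Apoa4, Apoa5, Apob, Apoc1, Apoc2, Apoc3, Apoe and Apoh, were followed through 8 liver RNA-seq libraries. They were found by matching the Ensembl gene IDs of the counts table to these symbols in the GRCm38 annotation (GENCODE M21). Each symbol matched 1 row, so that the members were 10 of the 49671 genes of the table, and all 10 were among the 13117 genes that passed the filter on low counts.

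The study deleted a short stretch of Lbr, the gene of the lamin B receptor, which spans the canonical translation start and part of the first intron. Mice homozygous for this deletion (NT-KO) were predicted to make at most an LBR that lacks its N-terminal domains and keeps its sterol reductase part, and were compared with wild-type (WT) mice. The study's western blots and mass spectrometry backed this prediction. It holds both the lost domains and a severe reduction of the protein to be likely sources of the phenotype, and NT-KO vs WT does not separate them. Livers of each genotype were taken from both sexes, which made 4 groups with 2 libraries in each. All mice were of the C57BL/6 strain (C57BL/6N in the study's methods), with an age given only as post weaning, all NT-KO mice carry the same germline deletion, and no group received a treatment. The labels do not tie a replicate number to an animal, so p-values measure the spread between these libraries.

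Apolipoproteins are the protein shell of the particles that carry triglyceride and cholesterol through the blood. ApoB is the scaffold of very low density lipoprotein, apoA-I and apoA-II are the main proteins of high density lipoprotein, and the small apoC proteins and apoA-V set how fast lipoprotein lipase removes triglyceride. ApoE is the ligand by which liver receptors take up remnants. Most are made by hepatocytes, and apoA-I, apoA-IV and apoB also by the gut.

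Lbr itself (chr1:181815335-181843046) was counted in every library. In CPM, the usual scaling of a count to the total of its library, it was at 7.40 and 6.15 in the WT males (replicate 1, then 2) and at 12.4 and 13.4 in the NT-KO males. The WT females were at 7.81 and 7.36 and the NT-KO females at 13.7 and 14.4. All 4 NT-KO libraries were above all 4 WT libraries, with an FDR of 0.166 over both sexes (edgeR's quasi-likelihood test, log2 fold change 0.89). The deletion leaves most of the transcript, so this count does not check it. Xist had 50913 to 59845 counts in the female libraries and 41 to 136 in the male ones, as the sex labels have it.

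Library totals ran from 45020377 to 64396291 counts, so that 1 count was worth 0.0155 to 0.0222 CPM. The 10 genes together held 3.36% to 5.12% of all counts, and albumin alone 4.88% to 8.15%. All 8 hepatocyte markers were present, and their summed level was 103882, 78233, 81342, 100881, 105327, 94209, 100044 and 105649 CPM, with males before females, within each sex WT before NT-KO, and replicate 1 before replicate 2. This order holds for every run of 8 values that follows.

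Male WT replicate 2 stood apart in genes of protein folding. The 16 ER chaperone genes summed to 4611, 9674, 2972, 3302, 3926, 3253, 3256 and 3247 CPM, highest in that library, and Hspa5 was the most abundant of them. Clock genes also differed between the groups: the ratio of Dbp to Arntl, which are expressed at opposite times of day, was 6.83, 7.50, 33.9, 37.7, 104, 128, 28.6 and 103. It was lowest in male WT, and in female NT-KO replicate 1 was nearer to male NT-KO than to its own replicate. The labels give no time of collection, and group and time cannot be told apart here.

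Levels of different genes were compared as CPM per kb of exon. Apoa2 was the highest with a mean of 14845 CPM per kb, rank 5 of the 49375 genes that have an exon length and lie outside the mitochondrial genome. Apoe followed with 6986 (rank 10), Apoa1 with 5177 (rank 16), Apoc1 with 5042 (rank 17), Apoc3 with 2536 (rank 27) and Apoh with 1278 (rank 46). Apoa5 reached 464 (rank 111), Apob 257 (rank 191), Apoa4 77.2 (rank 616) and Apoc2 3.56 (rank 5940). Apoa2 was above Apoe in every library, with a lowest value of 9806 CPM per kb against a highest of 8909 for Apoe. Apoe, Apoa1 and Apoc1 overlapped across libraries, as did Apoa1 with Apoc3 and Apoc3 with Apoh, and the steps from Apoh to Apoa5, Apob, Apoa4 and Apoc2 did not.

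Exons shared with other genes limit 3 of these levels. Of the 813 exon bases of Apoc2, 646 are also exons of the gene Gm44805 on the same strand, which had 31 to 58 counts. The 41 to 248 counts of Apoc2 are thus likely only part of its reads, and its rank of 5940 cannot be read as its level in liver. Over its own 167 bases Apoc2 would stand at 17.3 CPM per kb, the lowest of the 10 by that length too. Reads that cross from own to shared bases may also go uncounted, so its place among the 10 is uncertain. Apoa4 shares 1266 of 1815 exon bases with antisense genes, of which Gm47528 had 23 to 217 counts and Gm10680 none in any library, and the library kit does not mark strand. Over its own bases Apoa4 would be at 255 CPM per kb, next to Apob, and Apoa5, which overlaps the antisense gene Gm47544 (0 counts in every library), would be at 586. How reads on shared exons were counted is not given in the sources used here. Apoa5 had 40723 to 87202 counts where Gm47544 had 0, so reads on their shared bases were not counted for both genes. Levels of Apoc2 and Apoa4 are uncertain and may be too low, and these own-base lengths were chosen after seeing the data.

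**Figure D1:**
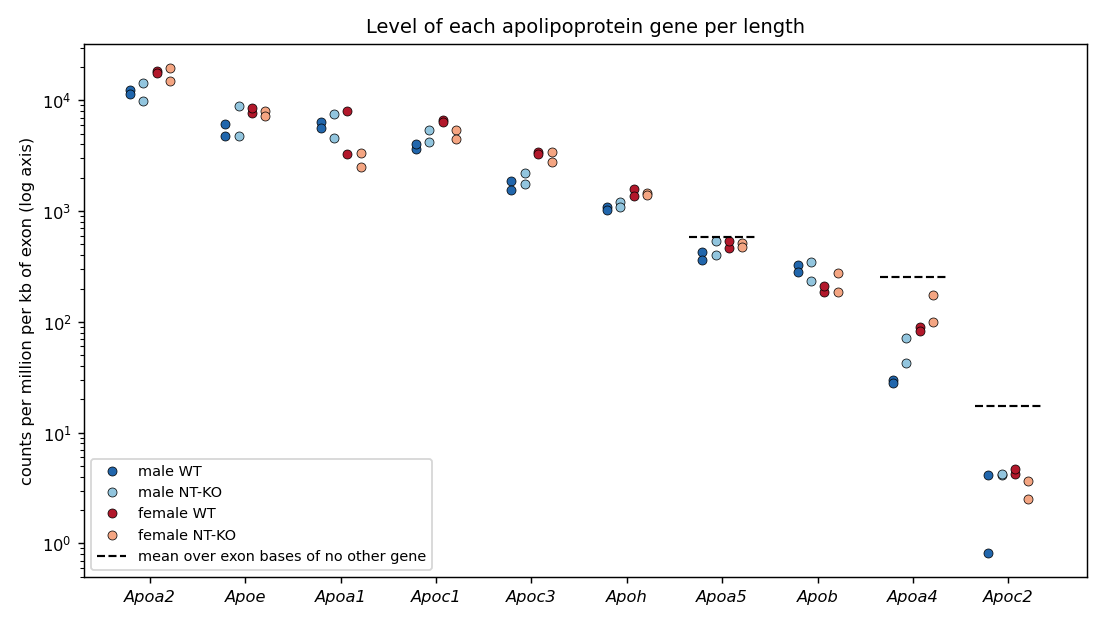
Level of each of the 10 genes in CPM per kb of exon on a log axis, 1 point per library coloured by group, with a dashed line at the mean level over exon bases of no other gene where over 100 bases are shared. The order runs from Apoa2 at 14845 to Apoc2 at 3.56 CPM per kb, and the male and female points of Apoa4 lie apart.

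ApoA-I, the scaffold of high density lipoprotein and the activator of cholesterol esterification by LCAT, is encoded by Apoa1 (ENSMUSG00000032083, chr9:46228580-46230466, plus strand). Its level was 7952, 6961, 9372, 5608, 9949, 4083, 4163 and 3101 CPM. It was high in the 4 male libraries and in female WT replicate 1, and low in the other 3 female libraries, so that every pair of groups overlapped except female NT-KO, which lay below both male groups. Apoa2 (ENSMUSG00000005681, chr1:171225054-171226379, plus strand) encodes the other main protein of this particle. Its level was 6692, 6162, 7749, 5266, 9879.6, 9475, 10484 and 8066 CPM, and every female library was above every male library.

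Apoa4 (ENSMUSG00000032080, chr9:46240696-46243459, plus strand) encodes a protein of chylomicrons and high density lipoprotein that gut and, in mice, liver secrete. Its level was 54.0, 50.9, 77.9, 129.9, 161.7, 150.3, 316 and 179.7 CPM. Male WT was lowest, male NT-KO came next, and female NT-KO was highest, with no overlap between any of the 4 groups. Apoa5 (ENSMUSG00000032079, chr9:46268633-46271919, plus strand), whose product promotes triglyceride removal by lipoprotein lipase, was at 1069 and 905 CPM in male WT, below both female groups at 1166 to 1354, and at 1357 and 1013 CPM in male NT-KO, which overlapped them.

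Apob (ENSMUSG00000020609, chr12:7977648-8016835, plus strand), the scaffold gene of very low density lipoprotein, is the longest of the 10 with 13934 exon bases. Its level was 4567, 3965, 3249, 4804, 2613, 2946, 2583 and 3886 CPM. All male libraries but NT-KO replicate 1 were above all female ones, so that the sexes overlapped.

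Apoc3 (ENSMUSG00000032081, chr9:46232933-46235636, minus strand) encodes apoC-III, an inhibitor of lipoprotein lipase and of remnant uptake. Its level was 1909, 1585, 2264, 1769.8, 3438, 3298, 3472 and 2838 CPM, and every female library was above every male library. Apoc1 (ENSMUSG00000040564, chr7:19689481-19692660, minus strand), whose product also slows triglyceride removal, was at 2721, 3011, 4017, 3152, 4990.2, 4748, 4017 and 3356 CPM. Within males the NT-KO libraries were above the WT ones, and within females they were below them. Apoc2 (ENSMUSG00000002992, chr7:19671579-19677941, minus strand), the gene of the lipase cofactor apoC-II, was at 0.670 CPM in male WT replicate 1 and between 2.06 and 3.85 CPM in the other 7 libraries.

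Apoe (ENSMUSG00000002985, chr7:19696109-19699188, minus strand) was the most counted of the 10. Its level was 12996, 10279.5, 19048, 10149.9, 16488, 18096, 16993 and 15428 CPM, close together in females and spread in males, where NT-KO replicate 1 was above every female library. Apoh (ENSMUSG00000000049, chr11:108343354-108414396, plus strand) encodes beta-2-glycoprotein I, a phospholipid-binding plasma protein. It lay between 1629 and 1940.0 CPM in males and between 2193 and 2525 CPM in females, with no overlap.

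**Figure D2:**
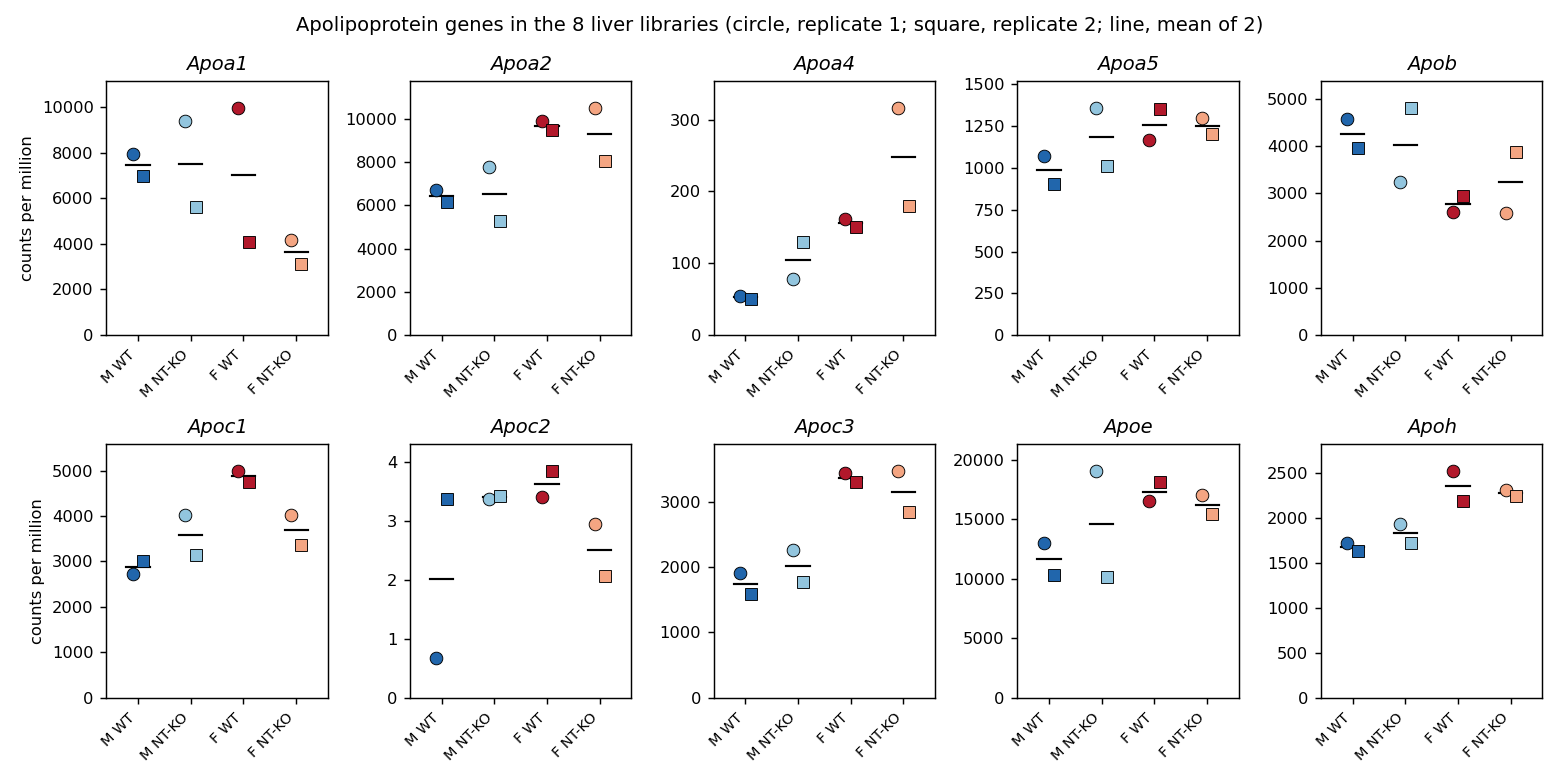
CPM of the 10 apolipoprotein genes in each of the 8 libraries, 1 panel per gene with its own axis from 0, by group (M, male; F, female), with circles for replicate 1, squares for replicate 2 and a line at the mean of 2. Apoa2, Apoa4, Apoc3 and Apoh were higher in all 4 female libraries, and Apoa1 was high in female WT replicate 1 at 9949 CPM.

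Stretches before the transcription start are shown for Apoa4, Apoa1, Apoa2 and Apob, which had an unadjusted p under 0.05 in the comparison of the sexes, so that their letters can be read beside those values. They come from RefSeq promoters (GRCm38.p6), which were matched for 8 of the 10 genes, all but Apoc1 and Apoc3. Each is written 5′ to 3′ on the plus strand and ends before the more upstream of its own RefSeq start and the GENCODE start. Apoa2 has another RefSeq start further upstream, at chr1:171221564, whose stretch is not shown. Capitals mark matches, on either strand, to 3 motifs in which N is any base. The direct repeat bound by HNF4 was searched as CAAAGNNCA. The box near many starts was searched as TATAAA. The forkhead site, which FOXA proteins bind, was searched as TGTTTNC. Their coordinates are chr9:46240594-46240695 for Apoa4, chr9:46228380-46228579 for Apoa1, chr1:171224804-171225053 for Apoa2 and chr12:7977427-7977647 for Apob.
Apoa4: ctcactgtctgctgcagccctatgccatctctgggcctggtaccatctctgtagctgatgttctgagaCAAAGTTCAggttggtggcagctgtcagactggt
Apoa1: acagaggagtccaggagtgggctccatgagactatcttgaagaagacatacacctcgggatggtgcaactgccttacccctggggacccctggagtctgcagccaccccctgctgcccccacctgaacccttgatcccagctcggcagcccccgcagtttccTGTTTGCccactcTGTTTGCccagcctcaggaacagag
Apoa2: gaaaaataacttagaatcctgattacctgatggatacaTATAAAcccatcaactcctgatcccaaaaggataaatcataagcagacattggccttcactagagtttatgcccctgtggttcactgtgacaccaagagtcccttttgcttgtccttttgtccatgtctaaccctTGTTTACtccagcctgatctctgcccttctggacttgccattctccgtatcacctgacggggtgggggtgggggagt
Apob: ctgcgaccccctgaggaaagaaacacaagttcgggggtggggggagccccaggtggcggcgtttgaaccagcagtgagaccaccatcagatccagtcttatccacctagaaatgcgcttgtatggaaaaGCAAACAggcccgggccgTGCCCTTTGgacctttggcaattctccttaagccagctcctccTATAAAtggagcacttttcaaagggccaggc

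Over the full windows of 300 bases around each RefSeq start, CAAAGNNCA was found in 3 of the 8 genes (Apoa4, Apob and Apoh), against 7.28% of all 27025 genes in the table, a gene counting once however many of its windows match. TGTTTNC was found in 6 of the 8 (Apoa1, Apoa2, Apoa5, Apob, Apoe and Apoh; 22.8% of all genes) and TATAAA in 4 (Apoa2, Apoa5, Apob and Apoe; 15.7%). TTCNNNGAA, the letters of a STAT site, was in none of the 8 and in 9.55% of all genes. Counted by window, CAAAGNNCA was in 3 of the members' 12 windows, TGTTTNC in 7 and TATAAA in 5, beside 6.36%, 20.5% and 13.6% of all 32851 windows. None of these motifs contains another, some genes have several overlapping windows, and a match is only a description of the letters.

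To ask how these genes in the liver differed with the Lbr deletion, NT-KO was compared with WT within each sex. No apolipoprotein gene passed an FDR of 0.05 in either sex with edgeR's quasi-likelihood test. In males 0 of 10 were called, beside 0.0152% of all genes tested, and 1 of 10 (Apoa4) had an unadjusted p under 0.05, beside 11.5% of all genes. In females 0 of 10 were called, beside 0.00762% of all genes, and 0 of 10 had an unadjusted p under 0.05, beside 1.55%. DESeq2 and edgeR's likelihood ratio test also called 0 of 10 in each sex, beside 2.35% and 1.94% of all genes in males and 0.0381% and 0.0839% in females. With no filter on low counts, the quasi-likelihood test called 1 of 10 in males, Apoa4 (adjusted p 0.00493), beside 3.09% of all genes. The count of all genes thus depends strongly on the tool and the filter.

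Apoa4 had the smallest p of the 10 members in each sex. In males it went from 52.4 ± 2.15 CPM in WT to 104 ± 36.7 in NT-KO (mean ± SD, n = 2), a log2 fold change of 0.91 (SE 0.30, 95% interval 0.21 to 1.61), with an adjusted p of 0.334 in edgeR's quasi-likelihood test. In females it went from 156 ± 8.10 to 248 ± 96.4 CPM (n = 2), a log2 fold change of 0.69 (SE 0.30, 95% interval -0.01 to 1.38), with an adjusted p of 1 in the same edgeR test. In each sex both NT-KO libraries were above both WT libraries. Over both sexes the log2 fold change was 0.80 (SE 0.21, interval 0.31 to 1.29) with an unadjusted p of 0.00558 and an adjusted p of 0.754 in edgeR's quasi-likelihood test, beside 0 of 10 members and 0.0152% of all genes called. At an unadjusted p under 0.05 it was 1 of 10, beside 5.42% of all genes. DESeq2 called Apoa4 alone of the 10 over both sexes (adjusted p 0.0355), beside 0.473% of all genes, and so did the quasi-likelihood test with no filter (adjusted p 0.000215), beside 1.5%, whereas the likelihood ratio test called 0 of 10, beside 0.389%. Within males the summed ER chaperone level and the Dbp to Arntl ratio moved with genotype as well, as did the enterocyte marker Fabp2 (log2 fold change 0.53, unadjusted p 0.0347, adjusted p 0.393 by edgeR's quasi-likelihood test), and their part in the value of Apoa4 was not tested. Without male WT replicate 2, the library with the high chaperone sum, the log2 fold change of Apoa4 in males was 0.86. Leaving out male NT-KO replicate 2 gave 0.51, and the female value was 0.24 when female NT-KO replicate 1 was left out, so the size rests on these libraries.

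Apoa1 had the largest fold change of the 10 in females, from 7016 ± 4148 CPM in WT to 3632 ± 751 in NT-KO (n = 2). Its log2 fold change was -0.93 (SE 0.43, interval -1.91 to 0.05; adjusted p of 1, edgeR's quasi-likelihood test), and without female WT replicate 1 it was -0.14. In males the log2 fold change of Apoa1 was -0.06 (SE 0.42, interval -1.03 to 0.91). With such an interval a change of nearly 2-fold either way was not detectable. For the remaining members the log2 fold changes ran from -0.16 (Apob) to 0.71 (Apoc2) in males and from -0.51 (Apoc2) to 0.25 (Apob) in females, and all their 95% intervals included 0. The narrowest of these intervals was that of Apoh, -0.37 to 0.49 in males and -0.46 to 0.41 in females.

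Apoc1 and Apoc2 were higher in male NT-KO and lower in female NT-KO, with no overlap of their CPM in either sex. Neither passed the FDR in either sex by edgeR's quasi-likelihood test, and the sizes rest on single libraries. For Apoc2 in males WT was at 0.670 and 3.376 CPM and NT-KO at 3.379 and 3.426. Male WT replicate 2 and male NT-KO replicate 1 were thus closer than 1 count, worth 0.0198 CPM in the latter, so in males Apoc2 was near a tie apart from WT replicate 1. Without male NT-KO replicate 1 the log2 fold change of Apoc1 in males was 0.056, against 0.26 with it. Without 1 library the female value of Apoc2, -0.51 with all, ran from -0.78 to -0.28, lowest without female NT-KO replicate 1 and highest without female NT-KO replicate 2. For Apoc1, male WT averaged 2866 ± 205 CPM and male NT-KO 3584 ± 612, whereas female WT averaged 4869 ± 171 and female NT-KO 3686 ± 467 (n = 2 each). The difference of its log2 fold changes between the sexes was 0.63 (SE 0.30, interval -0.05 to 1.32), with an unadjusted p of 0.0640 and an adjusted p of 0.691 in edgeR's quasi-likelihood test. The difference was 1.22 for Apoc2 (SE 0.82, interval -0.67 to 3.11, adjusted p 0.768) and 0.64 for Apoc4, a close neighbour of Apoc1 (adjusted p 0.693). Markers of blood cells moved between these groups too. Of 4 tested B and T lymphocyte genes all 4 were higher in the fit in male NT-KO (median log2 fold change 1.17) and lower in female NT-KO (-0.84), with a median difference of 1.89 and 3 of 4 at an unadjusted p under 0.05. The 4 red blood cell genes had a median of -1.04 in males and 0.32 in females, with a median difference of -1.37 and 2 of 4 at an unadjusted p under 0.05. In both lists 0 genes passed the FDR of the difference by edgeR's quasi-likelihood test, and their part in the values of Apoc1 and Apoc2 was not tested. In this test of the difference 0 of 10 members were called, with 0 at an unadjusted p under 0.05, beside 0.0152% and 7.2% of all genes; DESeq2 and the likelihood ratio test also called 0, beside 0.473% and 0.351%.

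In CPM, 3 of 10 members did not overlap between male NT-KO and WT, all higher (Apoa4, Apoc1 and Apoc2), beside 39.6% of all genes, 26.1% higher and 13.5% lower. In females 1 was higher (Apoa4) and 2 were lower (Apoc1 and Apoc2), beside 26.7% of all genes, 9.78% higher and 16.9% lower. After scaling by TMM, a choice made after seeing the data, 1 of 10 (Apoa4) was left in males, beside 19.6% of all genes higher and 19.2% lower, and the same 3 in females, beside 12.2% higher and 14.2% lower. The Apoc2 difference in males rested on 1 library: without male WT replicate 1 its log2 fold change was -0.05. The median log2 fold change of the 10 members was 0.17 in males and -0.05 in females, and that of all genes 0.01 and 0.00.

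Male and female livers were then compared over both genotypes. Apoa4 and Apoc3 were lower in males, and the other 8 members did not pass the threshold. Apoa4 was 78.2 ± 36.5 CPM in males and 202 ± 77.0 in females (n = 4), a log2 fold change of -1.28 (SE 0.22, 95% interval -1.78 to -0.79; adjusted p of 0.0112, edgeR's quasi-likelihood test), or 2.43-fold lower in males. Apoc3 was 1882 ± 287 CPM in males and 3261 ± 292 in females (n = 4), a log2 fold change of -0.66 (SE 0.16, interval -1.02 to -0.31; adjusted p of 0.0401 in the same edgeR test), or 1.59-fold lower. These were 2 of 10 members called, both lower, beside 7.84% of all genes called, 3.72% higher and 4.12% lower. At an unadjusted p under 0.05 there were 5 of 10, beside 26.9% of all genes. The call of Apoc3 was near the threshold: it was lost with filterByExpr as the filter (adjusted p 0.0514) and in 7 of 8 fits that left out 1 library, with adjusted p up to 0.141, whereas Apoa4 kept its call in all 8, with adjusted p from 0.0102 to 0.0427. Within the 4 WT libraries alone Apoa4 was called and Apoc3 was not (adjusted p 0.0817), and within the 4 NT-KO libraries alone neither was, with adjusted p of 0.308 and 0.649 by edgeR's quasi-likelihood test.

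Apob and Apoa1 leaned the other way. Apob was 4146 ± 695 CPM in males and 3007 ± 609 in females (n = 4), a log2 fold change of 0.59 (SE 0.20, interval 0.14 to 1.04; adjusted p of 0.101, edgeR's quasi-likelihood test). Apoa1 was 7473 ± 1589 CPM in males and 5324 ± 3121 in females (n = 4), a log2 fold change of 0.70 (SE 0.30, interval 0.01 to 1.39; adjusted p of 0.181 in that test). The size for Apoa1 rests on some libraries: it was 1.09 without female WT replicate 1, 0.44 without female WT replicate 2, 0.26 in the 4 WT libraries alone (adjusted p 0.715) and 1.13 in the 4 NT-KO libraries alone (adjusted p 0.250, edgeR's quasi-likelihood test). DESeq2 called both, with adjusted p of 0.0141 for Apob and 0.0477 for Apoa1, and so called 4 of 10 members, beside 14.1% of all genes. The quasi-likelihood test with no filter called the same 4, beside 9.16%, and the likelihood ratio test called Apoa4 and Apoc3, beside 13.4%. Apoa2 had a log2 fold change of -0.42 (SE 0.18, interval -0.82 to -0.02; adjusted p of 0.171 by edgeR's quasi-likelihood test) and Apoh of -0.28 (SE 0.13, interval -0.58 to 0.03). Apoc1, Apoe, Apoa5 and Apoc2 had log2 fold changes of -0.27, -0.23, -0.08 and -0.08, with intervals that included 0. For Apoe, leaving out the first of the male NT-KO libraries gave -0.50, and leaving out replicate 2 of that group gave -0.034.

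In CPM, 4 of 10 members (Apoa2, Apoa4, Apoc3 and Apoh) did not overlap between the sexes, all lower in males, beside 18.3% of all genes, 14.2% lower and 4.11% higher. After TMM scaling 3 of 10 were left (Apoa4, Apoc3 and Apoh), beside 8.5% of all genes lower and 7.6% higher. With library size in place of TMM the median log2 fold change of all genes moved to -0.12, and the genes called were 347 higher and 1171 lower in males, against 488 higher and 540 lower with TMM. Under that scaling Apob and Apoa1 had log2 fold changes of 0.46 and 0.56, and Apoa4 and Apoc3 of -1.42 and -0.80, with no change of direction.

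**Figure D3:**
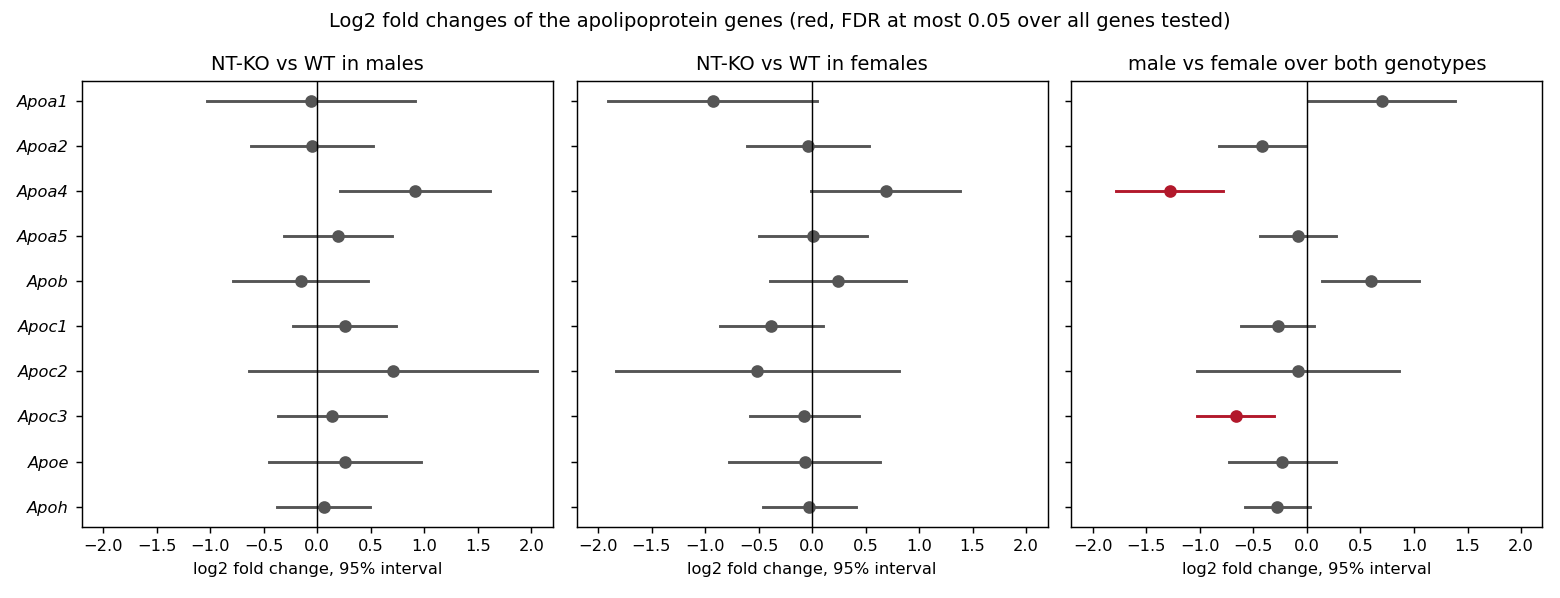
Log2 fold change of the 10 genes with its 95% interval for NT-KO vs WT in males, NT-KO vs WT in females and male vs female over both genotypes; red marks an FDR of at most 0.05 over all genes tested in edgeR's quasi-likelihood test. Apoa4 at -1.28 and Apoc3 at -0.66 in male vs female are the 2 red points, and in the genotype panels all points are grey.

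Summed markers of other liver cells were set beside the comparison of the sexes. In that comparison 7.84% of all genes passed the FDR by edgeR's quasi-likelihood test, and 26.9% had an unadjusted p under 0.05. The 9 Kupffer cell and macrophage markers, all present and led by Clec4f, summed to 186, 294, 329, 257, 412, 411, 381 and 436 CPM, lower in every male library, and 0 of the 9 passed the FDR by edgeR's quasi-likelihood test (6 lower at an unadjusted p under 0.05). The 6 sinusoidal endothelial markers, all present and led by Clec4g, summed to 168, 118, 203, 179, 241, 239, 208 and 237 CPM, and the 6 stellate cell markers, all present and led by Dcn, to 313, 244, 322, 355, 413, 379, 433 and 388 CPM. In both lists every male library was below every female library in CPM, but on TMM-scaled CPM, a choice made after seeing the data, the sexes overlapped in both, and 0 of 6 genes in each passed the FDR. The Kupffer cell and red blood cell sums did not overlap on that scale either. The endothelial genes were all lower in males in the fit (3 at an unadjusted p under 0.05), whereas of the stellate genes 3 were lower and 3 higher, with a median log2 fold change of -0.11. The 4 red blood cell markers, all present and led by Hbb-bs, summed to 798, 379, 335, 335, 179, 173, 299 and 158 CPM, higher in every male library, and 1 of 4 passed the FDR. In bulk tissue fewer cells of a type and less RNA per cell cannot be told apart, and the part of these cells in the apolipoprotein values was not tested.

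Gut, which expresses Apoa1, Apoa4 and Apob, was looked for by 6 enterocyte markers. Of these Fabp2 alone was above 1 CPM, at 34.2 to 93.8 CPM. In male vs female Fabp2 had an unadjusted p under 0.05 but did not pass the FDR (log2 fold change -0.55, adjusted p 0.0576 by edgeR's quasi-likelihood test). Every male library was below every female library in CPM of Fabp2, whereas the summed list overlapped on TMM-scaled CPM. Its part in the sex difference of Apoa4 was not tested. Within males Fabp2 was at 34.2 and 43.6 CPM in WT and at 53.6 and 63.9 in NT-KO, with no overlap. Lct, Sis, Alpi and Cdx2 had at most 3 counts in any library. Of the 5 pancreatic acinar markers Cpa1, Pnlip, Amy2b and Ctrb1 had at most 3 counts, and Cela1, at 14.4 to 36.8 CPM, was higher in males (log2 fold change 1.02, adjusted p 0.00856).

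The members varied together in part. Over the 8 libraries (log2 CPM, TMM-scaled; a description, since the points share sex, genotype and depth), Apoc3 went with Apoh (Pearson r 0.94) and Apoa2 (0.92), and Apoa5 with Apoe (0.93). Apob had r of -0.90 with Apoa2, -0.89 with Apoc3 and -0.88 with Apoc1, but -0.45 with Apoc2 and 0.17 with Apoa1. After the mean of each sex was removed the first 3 values of Apob were -0.75, -0.70 and -0.85, Apoc3 had 0.75 with Apoh and 0.83 with Apoa2, and Apoa5 had 0.94 with Apoe. Apoa1 and Apoa4, which lie in the same cluster, had r of -0.66, and -0.35 after the sex means were removed.

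Exon length moved with the libraries too, which was seen in the data and not planned. The median deviation of genes with at most 1000 exon bases minus that of genes with over 10000 was -0.19, 0.03, 0.14, -0.17, 0.19, 0.00, 0.13 and -0.07 on the log2 scale. In male vs female the median log2 fold change was -0.00036 for genes of up to 1000 exon bases, and over the 6 classes of longer genes it went up with length, from -0.08 in the shortest of them to 0.09 in genes of over 10000. In NT-KO vs WT the median of genes of up to 1000 exon bases was 0.035 in males and -0.063 in females. For genes of over 10000 it was -0.015 in males and 0.0066 in females. Apob has 13934 exon bases, and Apoa2, Apoc1, Apoc2 and Apoc3 have 537, 744, 813 and 1014. The part of length in their values was not tested.

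**Figure D4:**
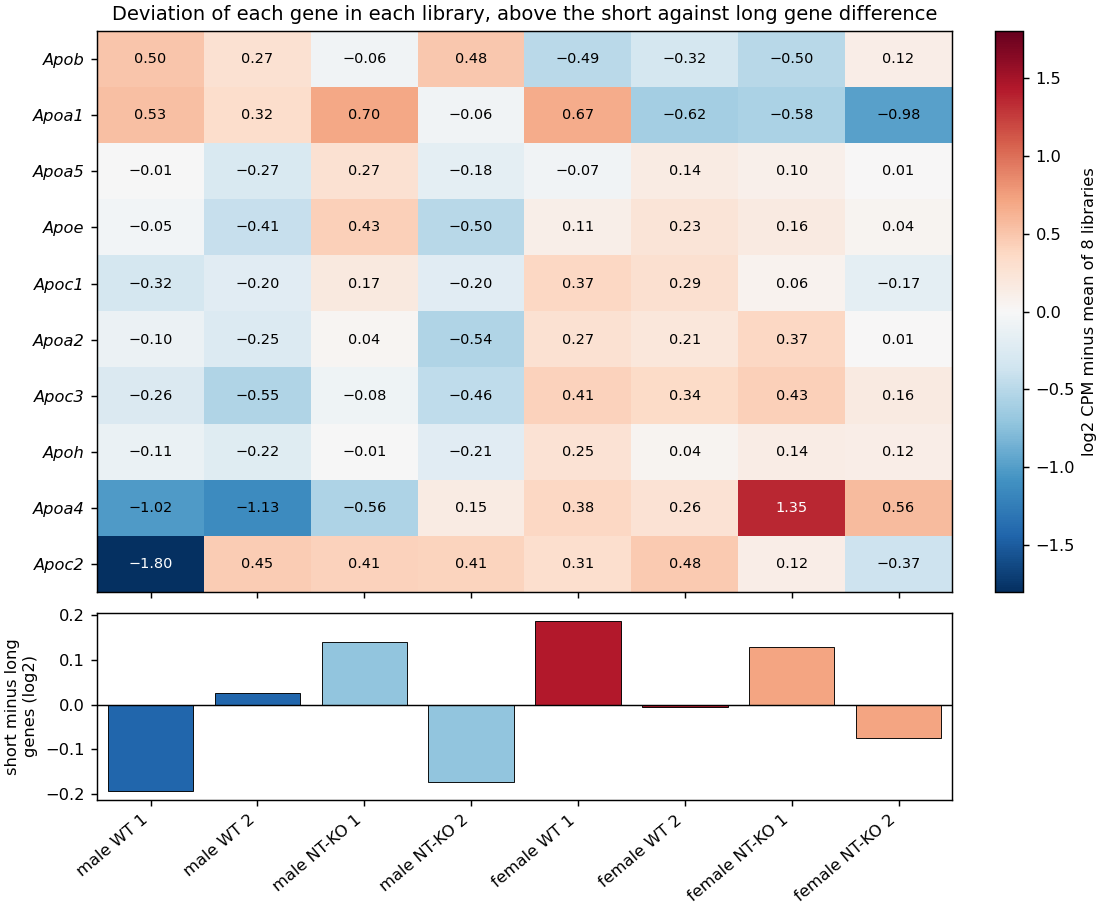
Upper panel, log2 CPM of each gene minus its mean over the 8 libraries; lower panel, the median deviation of genes with at most 1000 exon bases minus that of genes with over 10000, per library (log2). Among male libraries Apob is positive in both WT and in NT-KO replicate 2, where Apoa2, Apoc1 and Apoc3 are negative, and the lower bars run from -0.19 to 0.19.

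For the 3 members that varied most, the genes with the most similar pattern over the 8 libraries were looked up among the 9254 tested genes whose mean reached 5 CPM. Apoa4 was most like Ddx58 (r 0.98, Spearman's rho 0.98), Dapk1 (0.97, 0.95) and Coq2 (0.97, 0.98). Apoa1 was most like Gm16573 (r 0.98, rho 0.93), Prr12 (0.96, 0.98) and Nlrp12 (0.96, 0.90). Each is the highest r picked from 9254 genes over only 8 libraries that share sex and genotype, so such values describe the pattern and do not show shared regulation. Apoc2 was most like Gm12338, Mug-ps1 and Gm20342, with r of 0.95, 0.92 and 0.91 but rho of 0.57, 0.55 and 0.50, and 1 library, male WT replicate 1, sets it apart.

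All members but Apoa2, Apob and Apoh sit in 2 clusters. Apoa1, Apoc3, Apoa4 and Apoa5 lie within 43.3 kb on chromosome 9, and Apoe, Apoc1 and Apoc2, with Apoc4, which is not 1 of the 10, within 27.6 kb on chromosome 7. Of 4 tested neighbours within 200 kb of the chromosome 9 cluster, 1 had an unadjusted p under 0.05 in male NT-KO vs WT, Zpr1 (log2 fold change 0.93, adjusted p 0.402 by edgeR's quasi-likelihood test), beside 11.5% of all genes, and 1 in male vs female, beside 26.9% of all genes, Gm47528 (-1.78, adjusted p 0.0628), which overlaps Apoa4 on the other strand. Of 15 tested neighbours of the chromosome 7 cluster, 3 had an unadjusted p under 0.05 in males, Bcam (0.74), Bcl3 (-1.03) and Nectin2 (-0.66), and 1 in male vs female, Relb (-0.58). By the quasi-likelihood test no neighbour of either cluster passed the FDR in male vs female, where Apoa4 and Apoc3 did, but Gm47528 was called in 5 other settings, DESeq2 and the likelihood ratio test among them. Because the kit does not mark strand, counts of Gm47528 may include reads from Apoa4 transcripts.

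Of 22 other apolipoprotein genes 12 were tested, and 0 passed in any comparison by edgeR's quasi-likelihood test. Apol7a, of the apolipoprotein L family, had the smallest p in males. Its level was 81.5, 55.4, 189, 171, 136, 192, 181 and 229 CPM, low in the 2 male WT libraries and between 136 and 229 CPM in the rest. Its log2 fold change in males was 1.32 (SE 0.26), with an unadjusted p of 0.000949 and an adjusted p of 0.167 by edgeR's quasi-likelihood test. DESeq2, the likelihood ratio test and the fit with no filter called it there. In male vs female Apobr (-0.80) and Apol7a (-0.60) had an unadjusted p under 0.05 and adjusted p of 0.0829 and 0.0838, and each was called in 4 other settings, the likelihood ratio test among them.

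Some genes that assemble, take up and remodel lipoproteins passed the FDR between the sexes, where 7.84% of all genes did, and most did not. In NT-KO vs WT 0 genes of these lists passed in either sex by edgeR's quasi-likelihood test. Vmp1 of the assembly list (log2 fold change -1.37 in males) was called in males by DESeq2, the likelihood ratio test and the fit with no filter, and Angptl8 of the remodelling list (1.31 in females) in females by the fit with no filter. Of 13 genes of assembly and secretion 1 rose and 1 fell in males relative to females. Tm6sf2, which helps to load lipid onto apoB particles, was at 16.4, 13.1, 20.1, 20.6, 35.5, 45.9, 61.6 and 41.5 CPM (log2 fold change -1.27, SE 0.16, adjusted p 0.00292 by edgeR's quasi-likelihood test). Vmp1, an ER protein needed to release lipoproteins, was higher in males at 1.11 (SE 0.20, adjusted p 0.0155), with 325 and 168 CPM in WT males, 99.2 and 101 in NT-KO males and 75.7 to 87.8 in females. Its call was lost in 4 of 8 fits that left out 1 library. Mttp, the lipid transfer protein of apoB particles, did not pass (0.27, adjusted p 0.465).

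Of 13 genes of receptors and uptake 1 rose and 2 fell in males. Vldlr, a receptor that binds apoE, was at 0.178 to 1.17 CPM in males and 5.14 to 12.5 in females (log2 fold change -4.03, SE 0.51, adjusted p 0.00294 by edgeR's quasi-likelihood test). Cd36, a fatty acid and lipoprotein scavenger receptor, was lower in males at -1.62 (SE 0.30, adjusted p 0.0161), a call lost in 2 of 8 fits without 1 library. Sort1, the sorting receptor sortilin, which binds apoB, was higher at 1.38 (SE 0.21, adjusted p 0.00712), with 9.11 to 15.0 CPM in males and 3.91 to 6.15 in females.

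Of 13 genes that act on lipoproteins in plasma 1 rose and 3 fell in males. Pltp, the phospholipid transfer protein, ran from 7.80 to 32.2 CPM in males and was above that in every female library, up to 81.4 CPM (log2 fold change -1.96, SE 0.35, adjusted p 0.0146 by edgeR's quasi-likelihood test). Lipc (hepatic lipase) and Pon1 (paraoxonase of high density lipoprotein) were lower in males at -0.69 and -0.59 (adjusted p 0.0198 and 0.0294). Abca1, which loads cholesterol onto apoA-I, was higher at 0.80 (adjusted p 0.0286). Leaving out 1 library lost the call of Pltp in 2 of 8 fits, of Lipc in 4, of Pon1 in 6 and of Abca1 in 6. Of the 3 genes of apoB mRNA editing 0 passed by edgeR's quasi-likelihood test. Apobec1, the editing enzyme, had the smallest p (log2 fold change 0.69, adjusted p 0.0730), and was called by DESeq2, the likelihood ratio test, the fit with no filter and the fit without male WT replicate 2.

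Of 26 tested transcription factors of apolipoprotein genes 0 passed in NT-KO vs WT in males by edgeR's quasi-likelihood test, with 5 higher and 2 lower at an unadjusted p under 0.05, beside 11.5% of all genes. Nr0b2, the nuclear receptor corepressor SHP, was at 14.3 and 25.7 CPM in male WT and at 89.7 and 39.0 in male NT-KO, with no overlap. Its log2 fold change was 1.63 (SE 0.42, unadjusted p 0.00445, adjusted p 0.242 by edgeR's quasi-likelihood test), and 0.89 without male NT-KO replicate 1. DESeq2, the likelihood ratio test and the fit with no filter called it. The 16 ER chaperone genes had a median of -1.16 in that comparison. By edgeR's quasi-likelihood test 0 of them passed the FDR and 14 were lower at an unadjusted p under 0.05. Hyou1 (-2.17) and Creld2 (-3.76) were each called there in 4 other settings. DESeq2, the likelihood ratio test and the fit with no filter were among these settings. In male vs female 1 transcription factor passed, Foxa3. It was at 81.1, 90.8, 57.8, 50.4, 36.9, 20.6, 18.1 and 20.4 CPM (log2 fold change 1.66, SE 0.19, adjusted p 0.00147 by edgeR's quasi-likelihood test). Each male library was above each female library, and the call held in all 18 other settings tried. The clock list had Clock (0.90) and Arntl (1.70) higher and Per3 (-0.82) lower in males among 13 tested genes, and the ER chaperone list Pdia6 (0.75) and Dnajc3 (0.69) higher among 16. All 16 chaperone genes had a log2 fold change above 0 in male vs female, 10 of them with an unadjusted p under 0.05, beside 26.9% of all genes. The sexes overlapped in CPM for all 16. Their summed level was 4611 and 9674 CPM in male WT, but 2972 and 3302 in male NT-KO, beside 3247 to 3926 in females, so the excess lay in the male WT libraries. The calls of Pdia6 and Dnajc3 were lost in 10 and 11 of 18 other settings, leaving out any female library among them. The call of Arntl was lost in 3 of 18, and those of Clock and Per3 in 1 each. The medians in male vs female were 0.20 for assembly and secretion, -0.16 for receptors, -0.28 for remodelling, 0.01 for transcription factors, -0.10 for clock genes and 0.66 for ER chaperones, beside -0.25 for the 10 members and 0.01 for all genes.

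**Figure D5:**
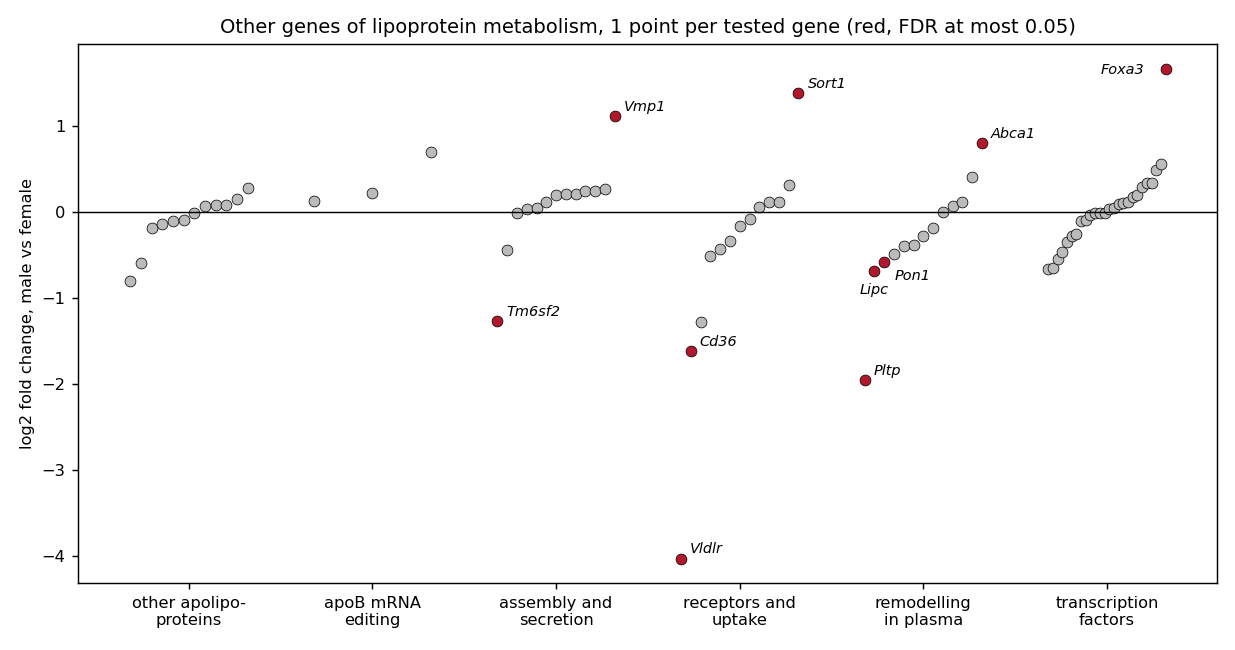
Log2 fold change of male vs female for every tested gene of 6 lists of lipoprotein metabolism, 1 point per gene, with red and a name where the FDR was at most 0.05. Vldlr at -4.03 is the lowest point and Foxa3 at 1.66 the highest.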

How the data were processed

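RNA from flash-frozen mouse livers was extracted with Trizol, and libraries were made by the authors with the Illumina TruSeq RNA kit, which does not mark strand. The authors trimmed reads with cutadapt, aligned them with STAR 2.6.1a to GRCm38 and counted reads per gene with featureCounts; the deposited values are raw counts, 1 column per library, and 0 columns were left unused. Strand and overlap settings of the counting are not given in the sources used here. Of 49671 gene IDs, 259 had no entry in the annotation (GENCODE M21) and stayed unnamed.

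The filter on low counts kept 13117 genes that reached 1 CPM in 2 or more libraries, leaving out rRNA, miRNA and mitochondrial genes. Counts were scaled by TMM and tested with edgeR 4.0.16 (R 4.3.3) by the quasi-likelihood F-test in 1 fit of the 4 groups, with Benjamini-Hochberg adjustment over all genes tested and an FDR of 0.05. Printed CPM are scaled to all counts of a library, and intervals are 95% intervals of the fit. Tried beside it were DESeq2 1.42.0, the likelihood ratio test of edgeR, RLE factors, library size only, no filter, filterByExpr, an FDR of 0.01, a replicate block, fits on 1 sex or genotype and leaving out each library.

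Genes outside the 10 were named by a rule: of each pathway list, those past the FDR or with the smallest p, and for the 3 most variable members the 3 genes with the highest correlation. Of marker lists the rule named the most abundant gene and those near 0, and of cluster neighbours those with an unadjusted p under 0.05. Mttp, Cd79a, Cd79b, Epcam, Sox9 and Alas2 were added after their values were seen. The members and lists were chosen with earlier results of these data known. TMM-scaled overlap, own-exon lengths and the length classes were chosen after seeing the data.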

Additional observations from a re-analysis of the deposited data

Results flagged for a closer look

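Of 20 groups of 4 libraries (10 genes in each sex), 2 held a library whose gap to the nearest of the others was a larger share of the range than the 95% critical value for 4 samples allows, and chance gives about 1 in 20 groups. Apoa1 was at 9949 CPM in female WT replicate 1, beside 3101 to 4163 CPM in the other 3 female libraries. Apoc2 was at 0.670 CPM in male WT replicate 1 (41 counts), beside 3.38 to 3.43 CPM in the other 3 male libraries.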

How the results depend on the processing

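The count of genes called over the whole table depended on the test and the filter; the cause was not tested. In males it was 2 with edgeR's quasi-likelihood test, 254 with the likelihood ratio test, 308 with DESeq2, 917 with no filter, 6 with filterByExpr, 4 with library size only and 2 to 27 when 1 library was left out. In females it was 1, then 11, 5 and 194 with the likelihood ratio test, DESeq2 and no filter, and 0 at an FDR of 0.01, in the 4 female libraries alone and whichever library was left out. Over both sexes it was 2, then 51, 62 and 445, with 0 at an FDR of 0.01 and 0 to 9 without 1 library. For the difference between the sexes it was 2, then 46, 62 and 552, and 1 to 7 without 1 library. For male vs female it was 1028, then 1757, 1849 and 2722, with 355 at an FDR of 0.01, 211 in the NT-KO libraries alone and 464 to 1205 without 1 library.

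Replicate numbers did not pair the libraries: deviations of same-numbered libraries had a correlation of -0.0067 in males and 0.023 in females. With a replicate block the calls were 3 in males, 0 in females, 2 over both sexes, 2 for the difference and 946 for male vs female.

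Of 536 repeats of 31 fold changes of the members, 490 kept direction and side of the threshold, 13 lost a call, 7 gained one and 26 turned direction. Log2 fold changes that turned when a library was left out ranged as follows. In males Apoa1 ran from -0.49 to 0.27, Apoa2 from -0.37 to 0.21, Apoa5 from -0.045 to 0.40, Apob from -0.46 to 0.089, Apoc2 from -0.046 to 2.26, Apoc3 from -0.064 to 0.31, Apoe from -0.28 to 0.65 and Apoh from -0.042 to 0.15. In females Apoa2 ran from -0.23 to 0.13, Apoa5 from -0.090 to 0.12, Apob from -0.094 to 0.52, Apoc3 from -0.21 to 0.055 and Apoh from -0.13 to 0.085. In male vs female Apoa5 ran from -0.20 to 0.019 and Apoc2 from -0.86 to 0.29. With library size only, Apoa1 and Apoa2 turned to 0.0057 and 0.017 in males and Apoa5 to -0.0073 in females. In the NT-KO libraries alone, male vs female turned to 0.0092 for Apoa5, 0.045 for Apoc1 and 0.53 for Apoc2. None of these members was called in the comparison named. Depth was not varied; Apoc2, with 41 to 248 counts, had the widest interval of the 10 in each comparison.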

Other observations

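Single markers of rarer cells also differed between the sexes. Of 7 B and T lymphocyte genes 4 were tested, and Cd79a and Cd79b, the signalling chains of the B cell receptor, were lower in males (log2 fold changes -1.60 and -1.84, adjusted p 0.0116 and 0.0108 by edgeR's quasi-likelihood test). Ighm, the most abundant of the list, ran from 2.47 to 47.5 CPM. The whole list summed to 6.03, 3.71, 8.77, 50.5, 22.5, 22.7, 8.86 and 12.3 CPM, highest in male NT-KO replicate 2. Of 5 cholangiocyte markers 1 passed, Epcam, lower in males (-1.12, adjusted p 0.0377), whereas Sox9 was at 1.18 (adjusted p 0.0518, higher in every male library), and the list, led by Spp1, summed to 26.0 to 63.0 CPM. Alas2, the heme synthesis enzyme of red blood cells, was higher in males (3.22, adjusted p 0.000248). Of 4 adipocyte markers 1 was above 1 CPM, Cidec at 2.75 to 4.51 CPM, and Lep had at most 3 counts in any library.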
